A study of Mus musculus with 2 samples.

Results

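The genes described here are 33 nuclear hormone receptor genes of the mouse, given as a list of gene symbols and found by symbol in the GENCODE M21 annotation among 21938 protein-coding genes. They were studied in DNase-seq data of the adrenal gland, the organ that makes steroid hormones in its cortex and catecholamines in its medulla. In this assay the enzyme DNase I cuts accessible DNA, and the places where cuts pile up are called as peaks. The labels put both samples into 1 group of 2 biological replicates, adrenal gland tissue of female mice aged 10 days. The mice were B6CASTF1/J, first-generation offspring of C57BL/6J and CAST/EiJ, with no treatment or altered allele named and with 3 females named in each label. Both labels name the same donor entry, so the samples may not be independent, and the agreement between them covers only the spread between these 2 samples. The tissue was whole, so a site with fewer open cells and a site with less access per cell cannot be told apart. With 1 group there was no comparison of conditions, and with 2 samples there was no test over samples, so both replicates are given for each value.

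Nuclear receptors are transcription factors, most of which are switched by small fat-soluble ligands such as steroids, retinoids, thyroid hormone, oxysterols, bile acids and fatty acids. Steroid receptors bind DNA as pairs of the same protein, many others pair with a retinoid X receptor (RXR), and some bind alone. In the adrenal gland the steroidogenic factor encoded by Nr5a1, itself a nuclear receptor, drives steroid synthesis, and the glands' own steroids act through members of the family.

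Peak positions are on mm10. A shared peak was a region with overlapping peaks of both replicates, a promoter peak lay within 1 kb of an annotated start, and a distal peak lay more than 1 kb from every start. The height of a peak is a signal that the authors normalised, in units of their own, and it has no depth attached. Replicate 1 had 98813 peaks and replicate 2 had 55135, which gave 48299 shared peaks, of which 26622 were distal. As a check of the tissue, 7 of 8 cortex markers and 5 of 6 chromaffin cell markers had a shared promoter peak, beside 63.6% of all protein-coding genes. The exceptions were the corticotropin receptor gene Mc2r and the tyrosine hydroxylase gene Th. Of the markers of other tissues, 0 of 5 for hepatocytes, 1 of 3 for intestine, 2 of 4 for retina and brain and 4 of 5 for adipocytes had one. The adipocyte list was about as open as the chromaffin cell list, so this check does not separate adrenal cells from fat cells.

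Promoter sequences of the members ran from rich to poor in CpG, the base pair step that is dense in many broadly used promoters. Below are the 150 bases before the first start of 4 members, with each CG in capitals, from the mm10 reference genome and in the direction of transcription. Esrra and Ppard had high shared promoter peaks over these bases, and Nr1i2 and Nr1i3 had none. These 4 were chosen after their values were seen.
Esrra, chr19:6921814-6921963, minus strand: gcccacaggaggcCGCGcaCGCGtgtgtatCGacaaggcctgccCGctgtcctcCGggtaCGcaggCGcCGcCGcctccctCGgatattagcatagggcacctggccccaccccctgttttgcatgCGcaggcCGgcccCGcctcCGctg
Ppard, chr17:28232550-28232699, plus strand: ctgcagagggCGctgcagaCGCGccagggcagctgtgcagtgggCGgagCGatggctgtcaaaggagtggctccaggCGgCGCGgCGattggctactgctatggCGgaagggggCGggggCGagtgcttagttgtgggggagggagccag
Nr1i2, chr16:38294825-38294974, minus strand: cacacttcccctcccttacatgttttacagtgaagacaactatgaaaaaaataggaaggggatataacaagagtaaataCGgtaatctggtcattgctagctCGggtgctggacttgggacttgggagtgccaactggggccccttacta
Nr1i3, chr1:171213820-171213969, plus strand: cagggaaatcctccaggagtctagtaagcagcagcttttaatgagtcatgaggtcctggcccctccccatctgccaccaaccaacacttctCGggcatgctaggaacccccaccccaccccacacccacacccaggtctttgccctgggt
The stretch of Esrra held 16 CG steps and that of Ppard 12, against 2 in that of Nr1i2 and 1 in that of Nr1i3.

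Many receptors of the family bind the 6 bases AGGTCA, or repeats of them. A footprint is a short stretch inside open chromatin that the authors called as protected from cutting. Peaks of 4 members held AGGTCA, on either strand, wholly inside the joint extent of a footprint of replicate 1 and an overlapping one of replicate 2, and these stretches are shown with 10 bases on each side, in the direction of the member's transcription and with the motif in capitals.
Thra distal peak, chr11:98755018-98755067, plus strand: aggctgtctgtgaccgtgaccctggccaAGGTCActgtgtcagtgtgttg
Ppara distal peak, chr15:85724777-85724814, plus strand: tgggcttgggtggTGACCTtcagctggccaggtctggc
Nr1h2 distal peak, chr7:44528003-44528039, minus strand: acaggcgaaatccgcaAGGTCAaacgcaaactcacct
Rxrg promoter peak, chr1:167618158-167618196, plus strand: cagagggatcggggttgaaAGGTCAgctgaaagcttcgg
At Thra and Nr1h2 the motif lay wholly inside a footprint of each replicate, and at Ppara and Rxrg wholly inside that of replicate 1 only. The matches at Thra, Nr1h2 and Rxrg read along the member's own strand, and that at Ppara reads as TGACCT because it lies on the opposite strand.

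Of the 33 genes, 27 (81.8%) had a shared promoter peak, against 63.6% of all protein-coding genes. Genes with such a peak are called open below and the others closed. The 6 without one were Nr1i2, Nr1i3, Hnf4a, Hnf4g, Nr2e1 and Nr2e3. Over the 27 genes the median of the highest promoter peak was 6.17 in replicate 1 and 2.82 in replicate 2, beside 5.95 and 3.10 over all protein-coding genes with a shared promoter peak. Heights ran from 0.421 to 19.3 in replicate 1 and from 0.477 to 7.57 in replicate 2, which in replicate 1 are percentiles 0.634 and 99.8 of all open protein-coding genes. Counted in both replicates at once, 12 genes lay above the median of all such genes and 10 lay below their 25th percentile. The order of the genes was nearly the same in both replicates, with a Spearman correlation of 0.979 over the 27 genes, which share both libraries.

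**Figure D1:**
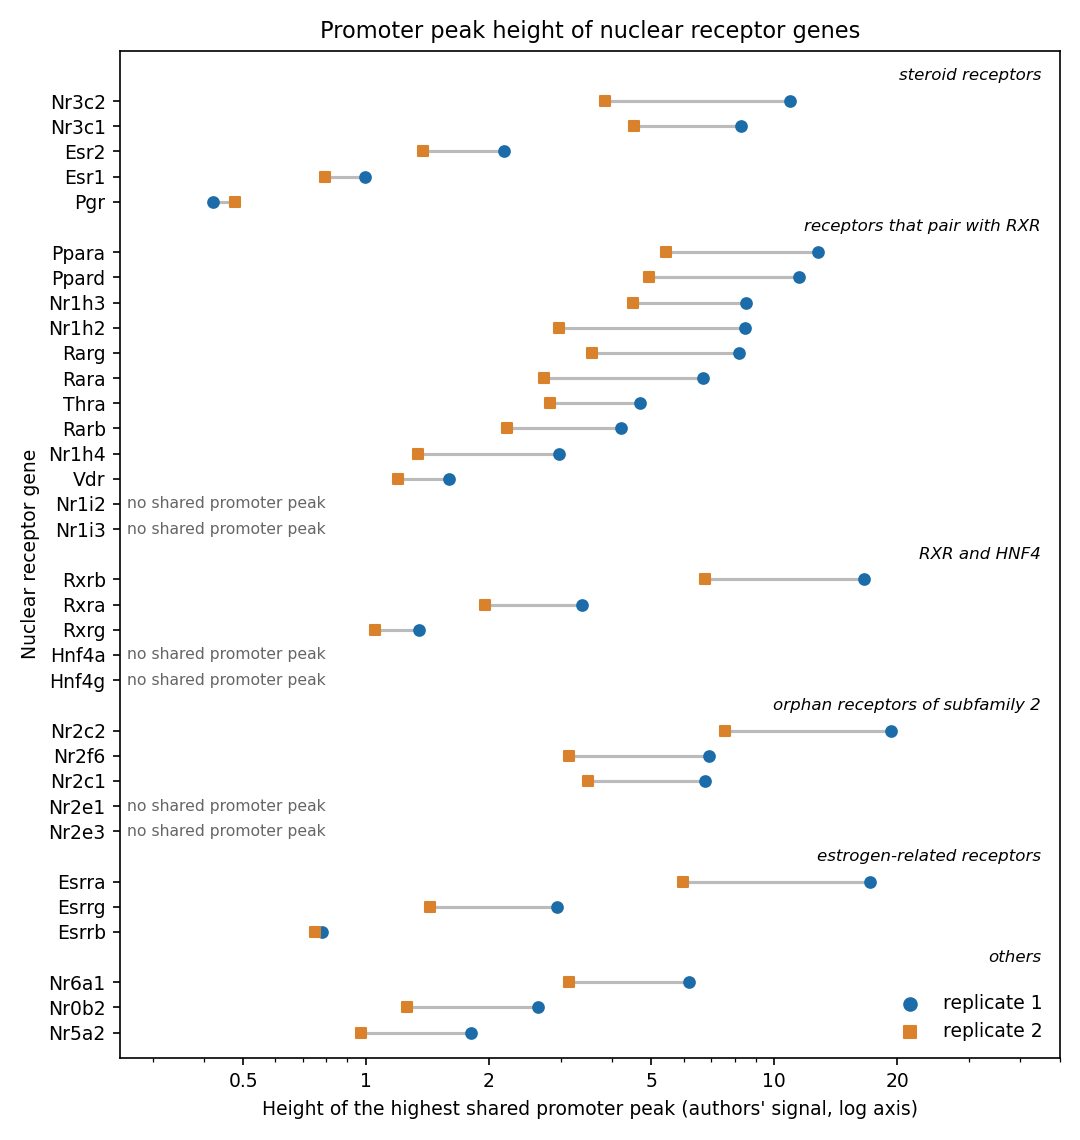
Height of the highest shared promoter peak of each nuclear receptor gene, in the authors' signal on a log axis, with replicate 1 as circles and replicate 2 as squares and the genes grouped by subfamily. The points run from Pgr (0.421 and 0.477) to Nr2c2 (19.3 and 7.57), and 6 genes without a shared promoter peak have no points.

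All 5 steroid receptor genes had a shared promoter peak, with a wide spread. Nr3c2 encodes the mineralocorticoid receptor, through which aldosterone from the adrenal cortex acts on salt-handling tissues. Its highest promoter peak, at chr8:76901981-76902300, had a height of 10.9 in replicate 1 and 3.86 in replicate 2. Nr3c1 encodes the glucocorticoid receptor, the target of the corticosterone that the gland itself makes. Its highest promoter peak, at chr18:39491601-39491820, had heights of 8.30 and 4.53. That put Nr3c1 below Nr3c2 in replicate 1 and above it in replicate 2, so their order differed between replicates. The sex steroid receptors were all lower than both in either replicate. The estrogen receptor gene Esr2 had 2.17 and 1.38, at chr12:76177921-76178100. Esr1, the other estrogen receptor gene, had 0.996 and 0.793, at chr10:4709981-4710260. The progesterone receptor gene Pgr had the lowest promoter peak of the family, 0.421 and 0.477, at chr9:8900981-8902141. It was at percentile 0.634 in replicate 1 and 1.32 in replicate 2 among all protein-coding genes with a shared promoter peak.

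Among the 12 receptors that pair with RXR, 10 had a shared promoter peak. The peroxisome proliferator-activated receptors, which respond to fatty acids, were the highest of them. Ppara, a regulator of fatty acid oxidation, had 12.8 and 5.44 at chr15:85735241-85735780. Ppard, its broadly used relative, had 11.5 and 4.93 at chr17:28232501-28232820. Both liver X receptor genes, whose proteins sense oxysterols and limit cholesterol, were open at similar heights in replicate 1. Nr1h3 had 8.52 and 4.49 at chr2:91202721-91202980, where starts of Acp2 and Gm13783 lay within 1 kb of the same peak. Nr1h2 had 8.46 and 2.96 at chr7:44553861-44554080. The 3 retinoic acid receptor genes were open as well. Rarg had 8.18 and 3.58 at chr15:102246961-102247280. Rara had 6.68 and 2.73 at chr11:98937501-98938460. Rarb had 4.22 and 2.22 at chr14:16575201-16575800, with a start of the gene model Gm48162 within 1 kb. The retinoic acid receptors kept 1 order in both replicates, Rarg over Rara over Rarb. Thra, a thyroid hormone receptor gene, had 4.70 and 2.82 at chr11:98741681-98742100, between Rara and Rarb in replicate 1 and just above Rara in replicate 2. The lower pair were Nr1h4 and Vdr. Nr1h4, the bile acid receptor known from liver and intestine, had 2.96 and 1.34 at chr10:89533321-89533740. The vitamin D receptor gene Vdr had 1.60 and 1.20 at chr15:97907961-97908420. Nr1i2 and Nr1i3, whose proteins sense foreign chemicals in liver, had no peak of the main list within 1 kb of a start in either replicate.

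The RXR genes, which encode the shared partners, were all open but unequal. Rxrb had the highest peak of the 3, 16.5 and 6.77 at chr17:34031561-34031880, and starts of Slc39a7 and Gm20427 lay within 1 kb of it. Rxra had 3.39 and 1.96 at chr2:27740221-27740580. Rxrg, an RXR gene known from muscle and brain, had 1.35 and 1.05 at chr1:167618061-167618400. The lower value of Rxrb lay above the higher value of Rxra, and the lower value of Rxra above the higher value of Rxrg, so the replicates of the 3 genes did not overlap. Hnf4a and Hnf4g, regulators of liver and gut epithelium, had no shared promoter peak. At Hnf4g a peak was called in replicate 1 only, with a height of 0.321 at chr3:3507961-3508040, lower than the highest promoter peak of every open member in that replicate.

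Of the orphan receptors of subfamily 2, whose ligands are unknown or unsettled, 3 of 5 were open. Nr2c2 had the highest promoter peak of all members, 19.3 and 7.57 at chr6:92092021-92092400, at percentiles 99.8 and 99.1 among open protein-coding genes. Its relative Nr2c1 had 6.76 and 3.50 at chr10:94147741-94148060, near the middle of the open protein-coding genes, at percentiles 56.8 and 58.2. Nr2f6, a repressor of the COUP family, had 6.93 and 3.15 at chr8:71381401-71382240. Nr2e1, a factor of neural stem cells, and Nr2e3, a factor of photoreceptors, had no peak of the main list within 1 kb of a start in either replicate.

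The 3 estrogen-related receptor genes, whose proteins act on mitochondrial genes without a steroid ligand, spanned the range of the family. Esrra had 17.2 and 5.97 at chr19:6921741-6922060, the next highest member to Nr2c2 in replicate 1 and the third in replicate 2. Esrrg had 2.93 and 1.44 at chr1:187997621-187997940. Esrrb, known from embryonic stem cells, had 0.782 and 0.750 at chr12:86421481-86421900, lower than every open member but Pgr. The replicates of the 3 genes did not overlap either.

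The remaining 3 members were also open. Nr6a1, the germ cell nuclear factor, had 6.17 and 3.14 at chr2:38926161-38926520. Nr0b2 encodes a receptor without a DNA-binding domain that represses other receptors, and had 2.63 and 1.26 at chr4:133552741-133553300. Nr5a2 is the closest relative of the cortex factor gene Nr5a1. It had 1.80 and 0.973 at chr1:136948921-136949200, and Nr5a1, which is not among the 33 genes, had 3.24 and 2.09.

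Many of these genes have several annotated starts, and several were open at starts other than the first. The 33 genes had 202 annotated starts, of which 118 (58.4%) had a shared peak within 1 kb, beside 52.1% of the starts of all protein-coding genes. A member had a median of 6 starts and a protein-coding gene a median of 3. Altogether 70 shared peaks lay at the members' starts, and 21 of the 27 open genes had 2 or more, against 38.5% of all open protein-coding genes. The number of peaks is not a number of promoters, because neighbouring peaks were counted apart. Esr2, Rarg and Nr1h4 each had 2 promoter peaks but only 1 open start. All starts were open at 8 of the 27 open genes, against 36.7%, namely Pgr, Rara, Rxrb, Rxrg, Nr2f6, Esrra, Esrrg and Nr0b2. The highest promoter peak covered the 5'-most annotated start at 8 genes, namely Ppard, Nr1h2, Nr1h3, Nr1h4, Rxrb, Nr2c1, Nr2f6 and Esrra, against 67.7% of all open protein-coding genes. At 12 genes it lay within 1 kb of that start, against 88.7%.

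At 5 genes the highest promoter peak lay more than 50 kb from the 5'-most start, against 2.06% of all open protein-coding genes. The start nearest to the peak lay 389036 bp downstream of the 5'-most one at Esrrg, 243716 bp at Rarb, 98562 bp at Esr1, 63761 bp at Rxra and 60527 bp at Esrrb. At Rarb this was the single shared promoter peak, and 5 of its 7 starts lay within 1 kb of it. Esrrg and Rxra were open at both ends. Esrrg had 2.54 and 1.38 at chr1:187608541-187608820 beside its 5'-most start, against 2.93 and 1.44 at the downstream one. Rxra had 3.51 and 1.70 at chr2:27676761-27677320 near its 5'-most start, so which of its promoters was higher differed between replicates. When only the 5'-most start of each gene was used, 20 of the 33 genes were open, beside 59.1% of all protein-coding genes. The genes lost were Esr1, Nr3c1, Rarb, Rarg, Vdr, Esrrb and Nr5a2.

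The receptors for the gland's own steroids also had several open starts. Nr3c1 had 8 of 9 starts open under 4 peaks, and the highest of these lay nearest to a start 28120 bp downstream of the 5'-most one. Its next highest peak, at chr18:39489181-39490860, had heights of 7.13 and 3.46. Nr3c2 had a peak of 3.45 and 2.25 over its 5'-most start, at chr8:76898961-76899480, with a start of the gene model Gm10649 within 1 kb. Its highest peak was nearest to a start 2846 bp downstream. In both replicates the downstream peak of Nr3c2 was the higher one. Rara had the most promoter peaks of the family, 8, at 7 open starts. It had 0.922 and 0.738 at the 5'-most start against 6.68 and 2.73 at a start 9880 bp downstream.

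CpG content was measured as the observed over the expected number of CpG steps within 500 bp of the start nearest to the peak. Its median was 0.661 over the open members, with a range from 0.259 to 1.01. Over the 6 closed members, at the 5'-most start, it was 0.316, with a range from 0.153 to 0.700. Of the 19 members at 0.6 or more, 18 were open, against 95.8% of all protein-coding genes of that class. The exception was Nr2e1, at 0.700. Of the 14 members under 0.6, 9 were open, against 31.6% of all genes of that class. These 9 were Esr1, Esr2, Pgr, Nr3c2, Nr1h3, Nr1h4, Rxra, Rxrg and Nr0b2. Nr0b2, Nr1h4 and Rxra were open at values of 0.259, 0.269 and 0.276, near the 0.223 of the closed Hnf4a. For Rxra this value is that of the downstream start, and its 5'-most start, also open, had 0.583. Nr1i2 and Nr1i3 had the lowest values of the family, 0.153 and 0.186. The split depended on the start that was taken, because with the 5'-most start of every gene 22 members fell under 0.6 and 17 of these were open, against 36.5% of all protein-coding genes of that class.

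**Figure D2:**
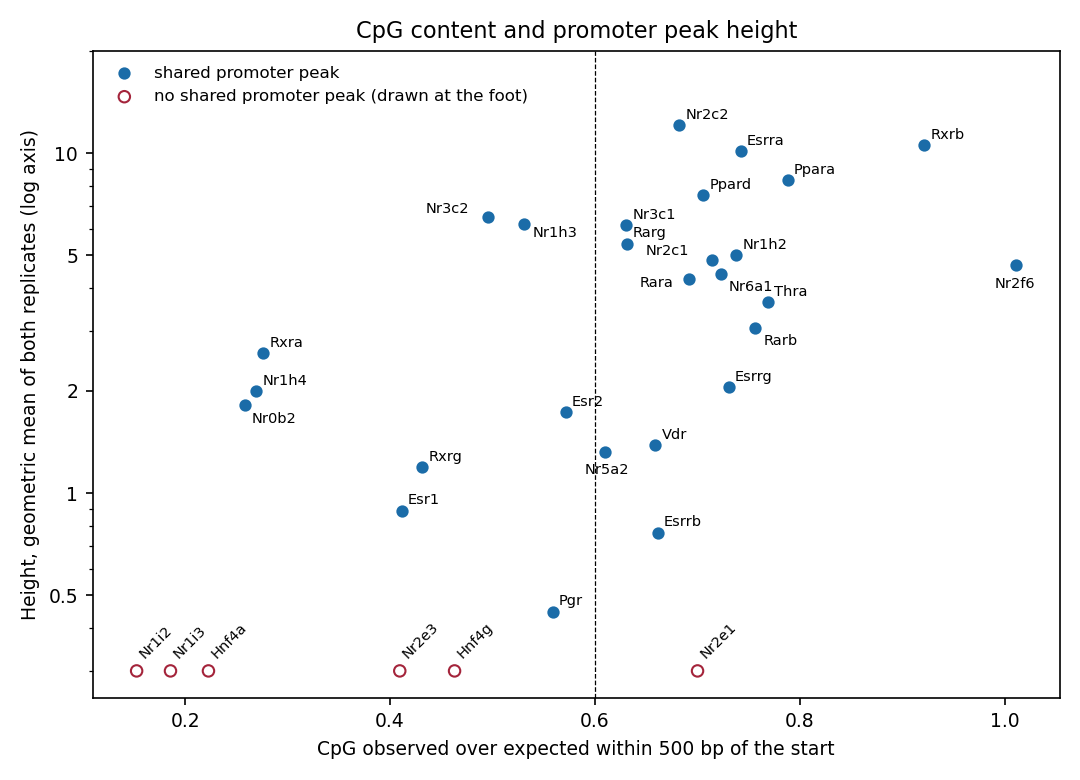
Ratio of observed to expected CpG in the 500 bp on each side of the start (horizontal) and height of the highest shared promoter peak, as the geometric mean of both replicates on a log axis, for the 27 open members (filled) with the 6 closed ones (open circles) drawn at the foot. Most high peaks lie right of the dashed line at 0.6, Nr3c2 and Nr1h3 are high to its left, and Nr2e1 is the closed gene to its right.

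Of the closed members, all but Hnf4g had a shared peak within 50 kb of the 5'-most start. Nr2e3 was closed by a small margin, since a shared intronic peak of 4.13 and 1.85, at chr9:59959361-59959620, lay 1035 bp from a start, just outside the 1 kb window. With a window of 2 kb Nr2e3 counted as open and 28 members were open in all. Hnf4a had a pair of intronic peaks, the higher of 3.48 and 2.76 at chr2:163535001-163535200, 11617 bp from the nearest Hnf4a start. Nr1i3 had 1 distal peak, of 2.97 and 2.43, in an intron of its neighbour Tomm40l at chr1:171220901-171221100. Nr1i2 had 1 of 1.22 and 0.756 in an exon of Maats1 at chr16:38304786-38304980. For Nr2e1 the nearest shared peak was 48929 bp away, with heights of 0.528 and 0.471. Among the open members, the peak of Nr0b2 lay 76 bp from its start and the nearest peak of every other one covered a start.

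Distal peaks were counted within 50 kb of the 5'-most start. The 33 genes had 86, all different, with a mean of 2.61 and a median of 2 per gene, beside 1.61 and 1 over all protein-coding genes. Of these peaks 48 lay in introns, 9 in exons and 29 between genes, 39 lay inside the receptor gene itself, and for 54 the nearest coding start was that of the receptor gene. Their heights had medians of 2.29 in replicate 1 and 1.44 in replicate 2, beside 1.50 and 0.874 over all distal shared peaks. Pgr, Nr3c2, Rarb, Nr1h3, Nr1h4 and Hnf4g had no distal peak in this window. At least 5 distal peaks were found at 5 genes, Rara, Thra, Ppara, Ppard and Nr1h2, against 7.24% of all protein-coding genes. All of these 5 are among the 12 members that pair with RXR. The number was not particular to that class. Of 15 nuclear receptor genes outside the 33, 3 reached it, Nr1d1 with 10, Nr4a1 with 8 and Nr2f2 with 5. On the longer peak list members outside the class, such as Esr2, Nr3c1 and Rxra, reached it as well. The counts depended on the replicate. The peaks of replicate 1 alone gave 17 members with at least 5 and 183 distal peaks, and those of replicate 2 alone gave 5 and 102. By the same measure 32.0% of all protein-coding genes reached 5 distal peaks in replicate 1 alone and 10.1% in replicate 2 alone.

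**Figure D3:**
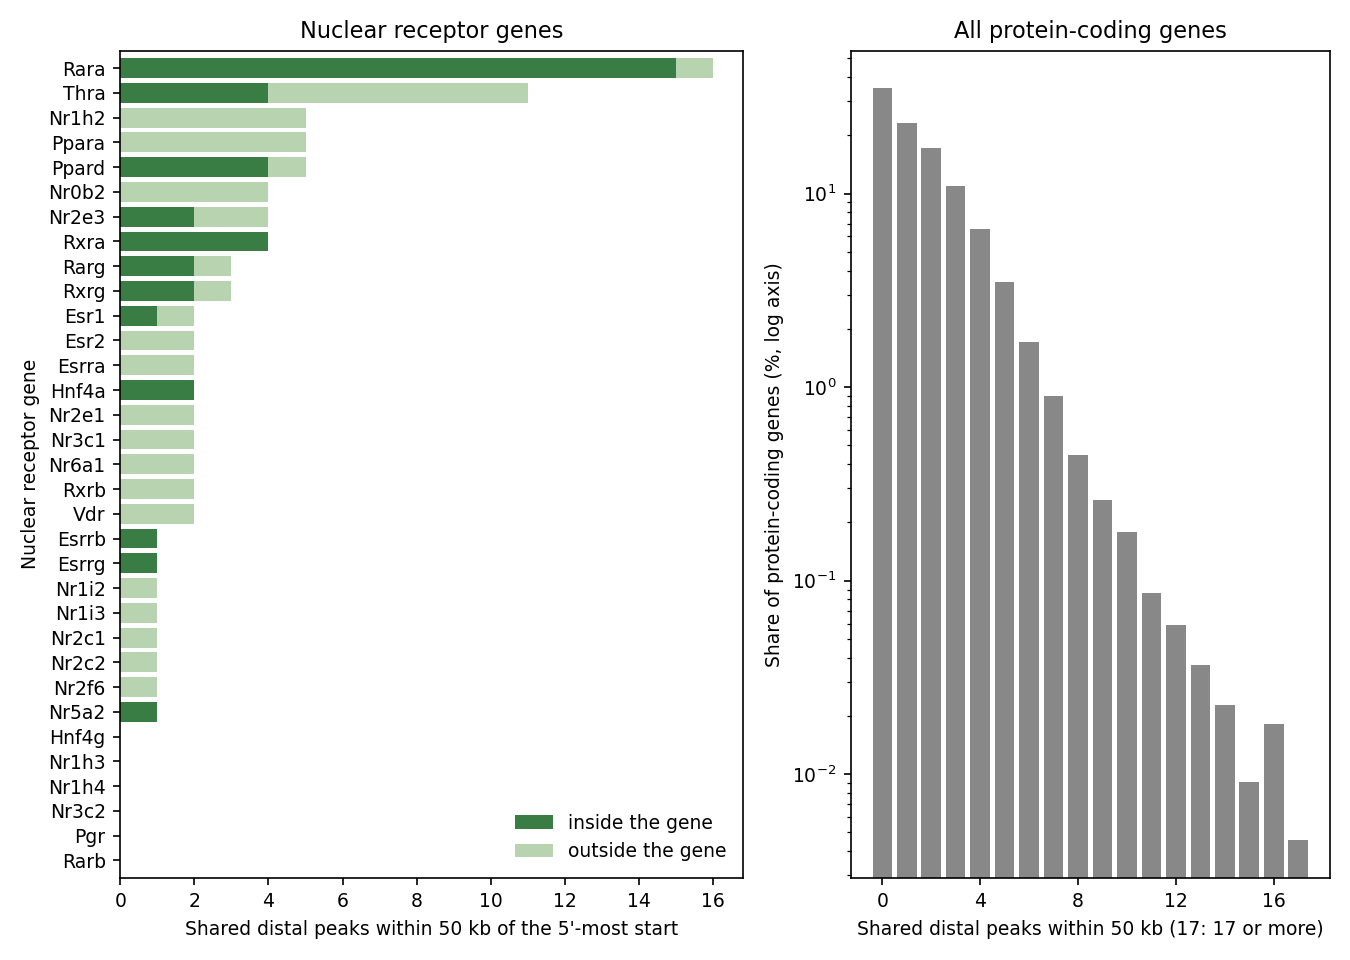
Left, distal peaks called in both replicates up to 50 kb from the 5'-most start of each nuclear receptor gene, split into peaks inside and outside the gene. Right, the share of all protein-coding genes at each number, in percent on a log axis. Rara with 16 and Thra with 11 lie in the thin tail of the right panel, and most members have 0 to 4.

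Rara, a retinoic acid receptor gene, had 16 distal peaks, a number that only 5 protein-coding genes reached or passed, Rara included. Of the 16, 15 lay inside the gene, and 13 had a Rara start as their nearest coding start. They ran through the length of the gene at chr11:98927818-98974942, with heights from 0.795 to 6.60 in replicate 1 and from 0.496 to 3.58 in replicate 2. The highest in replicate 1, at chr11:98933297-98933520 in an intron, had 6.60 and 2.14. The highest in replicate 2, also intronic and at chr11:98951401-98951840, had 6.08 and 3.58. The highest Rara promoter peak had 6.68 and 2.73. The distal peak of 6.60 and 2.14 was lower than it in both replicates. That of 6.08 and 3.58 was lower in replicate 1 and higher in replicate 2.

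Thra lies upstream of Rara on the same chromosome, at chr11:98740638-98769006, and had 11 distal peaks, a number that 52 protein-coding genes reached or passed. Only 4 of the 11 lay inside Thra, all in introns, and these had heights of 1.42 to 3.49 in replicate 1. Those at chr11:98750521-98751120 and chr11:98751121-98751678 abut each other and were counted apart. The highest of the 11 lay in an intron of the neighbouring gene Nr1d1, which encodes a nuclear receptor of the circadian clock, 1153 bp from an Nr1d1 start. It was at chr11:98773781-98774180 with heights of 16.9 and 6.98, above the 4.70 and 2.82 of the highest Thra promoter peak. Nr1d1 had 10 distal peaks by the same count, so the windows of these neighbours overlap. The peaks downstream of Thra can be counted for either gene, and which start they act on was not tested.

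**Figure D4:**
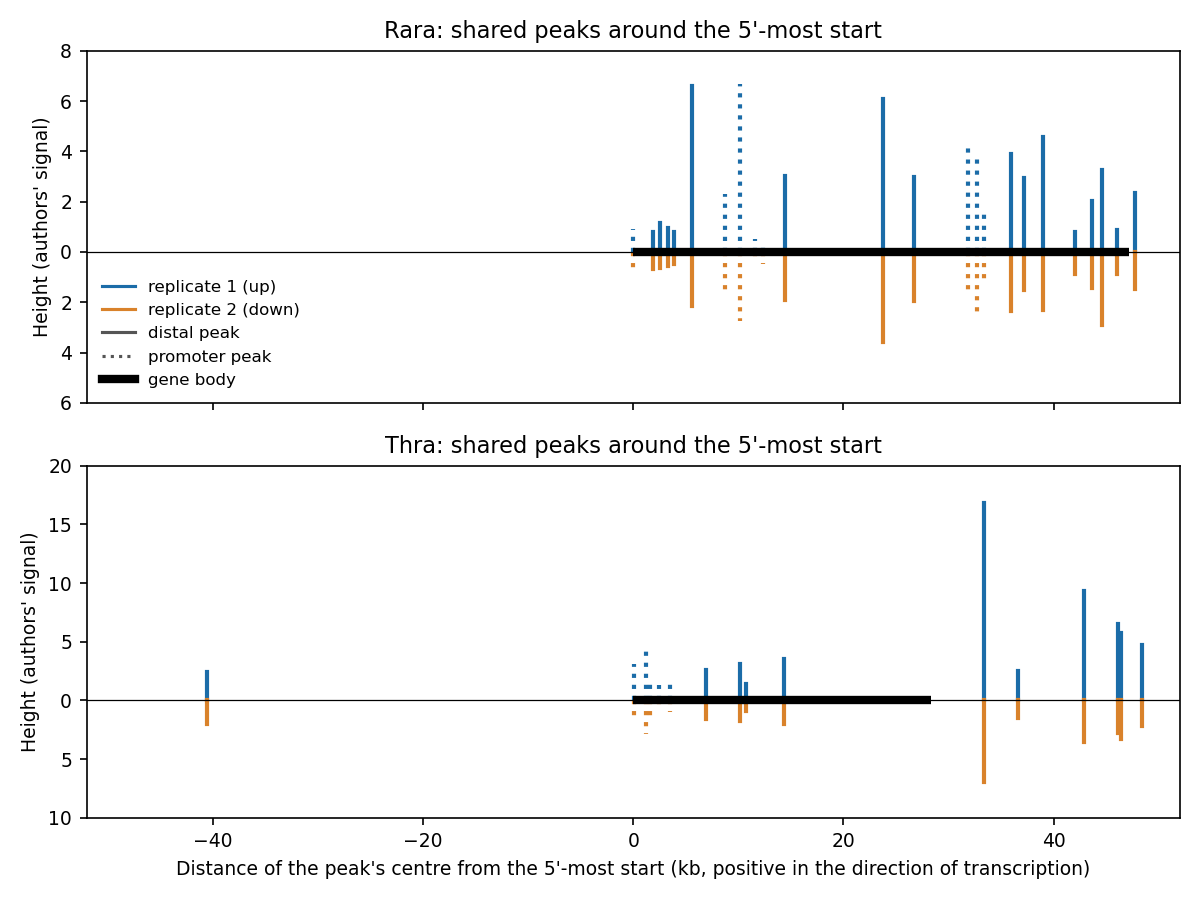
Shared peaks around the 5'-most start of Rara (top) and Thra (bottom), by distance of the peak's centre in kb, with the height in replicate 1 upward and in replicate 2 downward, distal peaks as solid lines, promoter peaks as dotted lines and the gene body as a thick bar. The distal peaks of Rara lie along the gene, while the highest one of Thra (16.9 and 6.98) lies beyond its end.

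The other 3 genes with 5 distal peaks had different layouts. At Ppara all 5 were upstream and between genes, with no other coding start within 50 kb, and heights ran from 2.33 to 4.53 in replicate 1 and from 1.75 to 2.69 in replicate 2. The highest was at chr15:85709401-85709640, 2082 bp from the microRNA gene Mirlet7b. At Ppard 4 of the 5 were intronic, and the highest, 5.70 and 3.17, lay upstream in an exon of Def6 at chr17:28226141-28226340. The intronic Ppard peaks at chr17:28279989-28280360 and chr17:28280384-28280780 are close neighbours, so Ppard reached 5 only because these were counted apart. At Nr1h2 all 5 lay outside the gene. The highest in replicate 1, of 2.25 and 1.37, was in an exon of Spib at chr7:44527881-44528280, and the highest in replicate 2, of 2.12 and 1.54, was at chr7:44561141-44561300 between genes.

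The window was also moved for all genes, because some members had their highest promoter peak far downstream. With the window set on the start nearest to the highest promoter peak, a setting chosen after seeing the data, 91 distal peaks were counted, a mean of 2.76 per member beside 1.61 over all protein-coding genes, and 6 members had at least 5, against 7.29%. Rxra was the added gene and went from 4 to 7, with its highest distal peak of 7.77 and 3.02 in an intron at chr2:27758481-27758700. Rarb went from 0 to 3 and Esrrb from 1 to 2, while Esr1 went from 2 to 0. Rara and Thra kept 16 and 11.

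Footprints were called in the highest promoter peak of all 27 open members in both replicates, against 99.1% of all open protein-coding genes. The median was 6 per peak in replicate 1 and 5 in replicate 2, the same as over all open genes, and the numbers ran from 2 to 13 in either replicate. In 26 of the 27 at least 1 footprint of replicate 1 overlapped 1 of replicate 2, against 95.6% of all open protein-coding genes. The exception was Esr1, with 3 footprints in each replicate and 0 overlapping. Nr2f6 had 13 and 11 and Rara 9 and 13. The peak of Nr2f6 was also the widest of the open members in replicate 2, at 800 bp.

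The hexamer AGGTCA stood in 10 of the 70 promoter peaks of the members (14.3%), beside 12.2% of all 12621 shared promoter peaks. It stood in 20 of their 86 distal peaks (23.3%), beside 19.2% of all 26622. Inside the joint extent of overlapping footprints of both replicates it was found at the 4 members whose sequences are printed above, Thra, Ppara, Nr1h2 and Rxrg. Over all the motifs searched, 5.44% of all protein-coding genes had such a match. The members had more distal peaks per gene than all protein-coding genes, so shares per peak are given too. The hexamer stood in such an extent in 1 of the 70 promoter peaks of members (1.43%), beside 1.47% of all promoter peaks. Among distal peaks it did so in 3 of 86 (3.49%), beside 2.50% of all. The stretch at Thra lay in a distal peak in its own intron, with heights of 3.49 and 1.97. That at Ppara lay in a distal peak of 3.34 and 1.82, upstream and between genes. That at Nr1h2 lay in the Spib exon peak of 2.25 and 1.37, nearer to the start of Spib than to its own. Rxrg was the only one with the match in a promoter peak, of 1.35 and 1.05. With the motif required inside a footprint of each replicate, a setting chosen after seeing the data, 2 members had a match, Thra and Nr1h2, against 2.96% of all protein-coding genes. With the peaks and footprints of replicate 1 alone 6 members had a match, against 12.4%, and with those of replicate 2 alone 2 had one, against 4.44%, so the number rests on which replicate is read.

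Longer receptor motifs were rare in all peaks. Those searched, on both strands, were TCAAGGTCA, which estrogen-related and Nr5a receptors bind alone, and direct repeats of AGGTCA spaced by 0 to 5 bases. Inverted repeats of AGGTCA spaced by 0 or 3 bases were searched as well. So was the inverted repeat of GNACA spaced by 3 bases, which steroid receptors other than the estrogen receptors bind. A hexamer inside a longer motif was counted in both. A pair of promoter peaks of members held a repeat, shown here with 10 bases on each side, with the fixed letters of the motif in capitals and in the direction of the gene.
Rxrb promoter peak, chr17:34036830-34036866, plus strand: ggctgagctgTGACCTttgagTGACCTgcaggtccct
Rara promoter peak, chr11:98936436-98936468, plus strand: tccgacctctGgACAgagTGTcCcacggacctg
The match at Rxrb was a direct repeat spaced by 5 bases on the strand opposite to the gene, the spacing known for pairs of a retinoic acid receptor with RXR. It lay in an exon of Rxrb, in a peak of 1.59 and 0.824 at chr17:34036661-34036932, and was the only match of its kind in the 12621 shared promoter peaks (0.00792%), while 0.0225% of all distal peaks held one. The match at Rara was the inverted repeat of GNACA, in an intron under a peak of 2.30 and 1.51 at chr11:98936161-98937000. That motif stood in 0.301% of all shared promoter peaks and 0.680% of all distal peaks. At neither match did a footprint of either replicate touch the motif. TCAAGGTCA was found in 1 distal peak of a member, of 1.12 and 0.787 upstream of Rxrb at chr17:33991929-33992100, and in 0.230% of all promoter and 0.913% of all distal peaks. The other spacings were in 0 peaks of members and in at most 0.0376% of all promoter or distal peaks.

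The replicates differed in scale, with a median height ratio of 1.66 (replicate 1 over replicate 2) over all shared peaks, or 0.73 on the log2 scale. The highest promoter peak was higher in replicate 1 at 26 of the 27 open members, against 96.8% of open protein-coding genes, and Pgr was the exception. It was wider in replicate 2 at 22 of the 27, against 75.5%, with a median width of 240 bp in replicate 1 and 320 bp in replicate 2. Relative to the median of all shared peaks, the members' log2 ratio had a median of 0.24 (SD 0.43 over the 27 genes), beside 0.19 over all open protein-coding genes. It ran from -0.91 at Pgr to 0.79 at Esrra, 0.78 at Nr1h2 and 0.77 at Nr3c2.

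These ratios followed height over all shared peaks. The median relative log2 ratio was -0.39 in the lowest decile of shared peaks by height and 0.38 in the highest. Measured against shared peaks of the same decile, the members ran from -0.53 at Pgr to 0.59 at Nr1h2, with a median of 0.12. If each step of the signal were 1 tag, which is inferred from the values, counting error alone would give a standard error of 0.049 to 0.25 on these log2 ratios. Related genes differed in this measure. Nr1h2 stood at 0.59 and its relative Nr1h3 at -0.19, and Nr3c2 stood at 0.39 and Nr3c1 at -0.24. With 1 value per replicate, these differences between related genes have no replicate check.

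**Figure D5:**
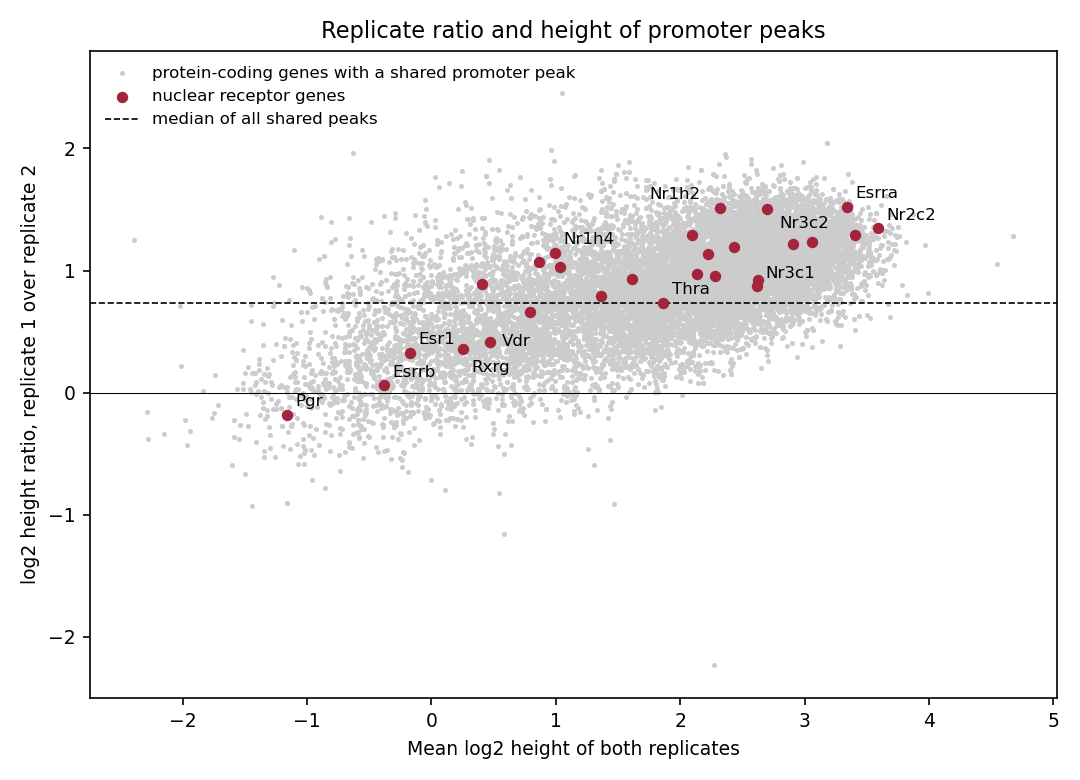
log2 ratio of promoter peak height, replicate 1 over replicate 2 (vertical), by the mean log2 height of both replicates (horizontal), for all protein-coding genes with a shared promoter peak (grey) and the nuclear receptor genes (red), with the median of all shared peaks dashed. The members follow the slope of the grey cloud from Pgr at the lower left to Esrra and Nr2c2 at the upper right.

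Other genes of the pathway were given by lists. All 15 of the other nuclear receptor genes were open, with median heights of 4.43 and 2.24, led, by the mean of both replicates, by the clock receptor genes Nr1d1 and Nr1d2 and the immediate early gene Nr4a1. All 18 genes for coactivators and corepressors, which receptors recruit, were open, with medians of 7.18 and 3.98, led in the same way by Carm1, Ncoa2 and Prmt1. The 9 chaperone genes, whose proteins hold steroid receptors ready for ligand, were open with medians of 12.1 and 5.93, and by that mean the highest were Hsp90aa1, Hspa8 and Fkbp5. By contrast 13 of 21 genes for enzymes and binding proteins that make, carry or remove ligands were open, with medians of 2.28 and 1.25, and by that mean the highest were Srd5a1, Rdh10 and Dio3. The closed ones were 8, among them the retinoic acid binding protein genes Crabp1 and Crabp2 and the retinoic acid hydroxylase genes Cyp26a1 and Cyp26c1. Against the background of 63.6% open, this list had 61.9% open.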

How the data were processed

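DNase-seq peaks, footprints and FDR lists of both replicates were used as deposited, each made from the alignments of 1 sample on mm10 per the file headers. No aligner or caller is named in the sources used here. Peak height is a signal normalised by the authors, given once per peak in the deposited lists. Heights were whole multiples, to within 5%, of a smallest step (0.00668 and 0.00620 in replicates 1 and 2), and read depth was not used beyond peak numbers. The deposited footprint lists carry the same p-value, 0.01, for every footprint, and the FDR lists hold adjusted p-values under 0.05. Because mm10 is the C57BL/6J genome, CAST/EiJ reads may have been lost at strain differences.

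The main list was the shorter peak list, with the longer one (159343 and 93845 peaks) as an alternative. Shared peaks needed 1 bp of overlap, and neighbouring peaks without overlap were not joined. Where several shared promoter peaks lay at a gene, the one with the highest sum of heights over both replicates was taken as its highest. Where a peak covered several starts, the nearest start was the one of lowest coordinate. Starts came from GENCODE M21. Every member was named, with the highest distal peak of members that had 5 or more. Of the other lists the 3 highest genes and up to 4 closed ones were named. The members and lists were chosen with earlier results of these data known. Main counts stand beside the share of all protein-coding genes, and no test was run. Scripts used Python 3.11.15, pandas 2.3.3, numpy 2.4.6, pysam 0.24.0 and matplotlib 3.10.9, and the merging and motif search were tested on simulated data.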

Additional observations from a re-analysis of the deposited data

Results flagged for a closer look

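The deposited FDR lists were used in no comparison above, and they held bases under 0.05 within 1 kb of a start at some members without a shared promoter peak. Both replicates listed such bases at 4 of the 6 closed members (66.7%), against 13.6% of the 7990 protein-coding genes without a shared promoter peak. At Hnf4g the lowest FDR was 2.91e-05 in replicate 1 and 0.00843 in replicate 2. At Nr2e3 it was 5.72e-13 and 0.00223, over 76 and 37 bases, beside the intronic peak 1035 bp from a start. At Nr2e1 it was 0.0125 and 0.00285, and at Nr1i2 0.0017 and 0.00526. A start of the neighbouring gene Ostm1 lay within 1 kb of the peak that the longer list had at Nr2e1. Hnf4a was listed in replicate 1 only, at 0.0182, and Nr1i3 in neither replicate. The longer list, too, had overlapping peaks of both replicates at 3 of the 6, so Nr1i3, Hnf4a and Nr2e3 were the 3 members closed on both lists.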

How the results depend on the processing

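The number of open members, 27, ranged from 20 (5'-most start only) to 30 (longer peak list) over the alternatives, each within 1.5 times. Of all protein-coding genes, 59.1% and 67.7% were open under these settings. With the 5'-most start only, the members' share was near that of all genes. The total of 86 distal peaks became 35 within 25 kb, 146 within 100 kb, 148 on the longer list and 54 with the 50% highest peaks, and 102 to 183 when 1 replicate was left out. The 5 members with at least 5 distal peaks became 1, 10, 14 and 3 under the same settings, beside 1.26%, 28.5%, 22.4% and 2.26% of all protein-coding genes, and 5 to 17 with 1 replicate left out. At 100 kb the members' share, 30.3%, was near that of all genes. Rara was among them under every setting. The 4 members with a receptor motif in a footprint became 2 to 6 with 1 replicate left out, and 2 with the motif required inside a footprint of each replicate, an alternative chosen after seeing the data. The median relative log2 ratio of 0.24 became 0.07 centred on promoter peaks, 0.12 by decile of height, 0.29 on the longer list and 0.24 with 50% overlap. The number of open members under a CpG ratio of 0.6 went from 9 to 17 with the 5'-most starts, also chosen after seeing the data. The windows and lists differ by construction, and other causes were not tested. No paired analysis was possible because there was 1 group. With 2 samples and no stated depth, peaks of low height, such as those of Pgr, Esrrb and Esr1, are the least certain: with the 50% highest peaks these and Rxrg and Nr5a2 were no longer open.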
